A study of Mus musculus with 3 samples.

Results

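The genes described here are 37 mouse genes whose products build or service the photoreceptor outer segment and its connecting cilium, or whose loss causes inherited retinal degeneration. They were taken from a list of names, and all 37 were present in each of the 3 gene tables, out of 19946 genes in the tables together. Raw counts of unique molecular identifiers (UMIs, 1 per captured mRNA molecule) were followed across the deposited cell types of 3 MULTI-seq libraries, in which cells of several samples are tagged with lipid-bound barcodes, pooled and sequenced together. The explant library held 8 samples of CD1 retina taken at E14 and cultured for 6 days on a membrane, 2 each at 0, 5, 50 and 500 nM of L-054,264, an agonist of the somatostatin receptor *Sstr2*. The P0 and P14 libraries each held 5 retinal samples from littermates of an *Sstr2* deletion line (C57BL/6NCrl-*Sstr2* em1(IMPC)Mbp/Mmucd outbred to CD1): 1 wild type, 2 heterozygous and 2 homozygous knockout. No engineered allele is named for the explants, and the deletion is a germline one, so no transgene or Cre is involved. The text speaks of explants and retinas for these barcoded samples, although the number of retinas pooled in each is not given in the sources used here.

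Rods and cones detect light in the outer segment, a stack of membrane discs grown from a modified primary cilium. Disc proteins are made in the inner segment and reach the discs through the connecting cilium, so structural proteins, ciliary transport proteins, chaperones and retinoid enzymes are all needed for a healthy cell. In the mouse, rods are born around birth and their outer segments grow during the first postnatal weeks. Loss of these genes underlies retinitis pigmentosa, Leber congenital amaurosis, cone-rod and macular dystrophies, Stargardt disease and the retinal part of Bardet-Biedl syndrome.

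The sequence just upstream of the RefSeq transcription start is shown for 6 of the genes because they stand for different patterns. *Prph2* and *Rdh12* rose steeply with age, and *Abca4* was present in neurogenic progenitors as well as in photoreceptors. *Aipl1* and *Rpgrip1* were higher in photoreceptors and had a TAATCC close to that start, and *Prpf31* was spread over the cell types. Each run is the 250 bases before the first RefSeq start (GRCm38.p6), written 5′ to 3′ on the strand of the gene. Capitals mark 3 motifs. The first is TAATCC, the core bound by the photoreceptor homeodomain factors *Crx* and *Otx2*, which reads GGATTA when it lies on the other strand. The next is TAATTA as a core shared by many other homeodomain factors. The last is TGCTGA, which reads TCAGCA on the other strand and is part of the Maf-type site to which *Nrl* binds. The windows are chr17:46910228-46910477, plus strand, for *Prph2*; chr12:79208663-79208912, plus strand, for *Rdh12*; chr3:122044210-122044459, plus strand, for *Abca4*; chr11:72037510-72037759, minus strand, for *Aipl1*; chr14:52110653-52110902, plus strand, for *Rpgrip1*; and chr7:3629735-3629984, plus strand, for *Prpf31*.
Prph2: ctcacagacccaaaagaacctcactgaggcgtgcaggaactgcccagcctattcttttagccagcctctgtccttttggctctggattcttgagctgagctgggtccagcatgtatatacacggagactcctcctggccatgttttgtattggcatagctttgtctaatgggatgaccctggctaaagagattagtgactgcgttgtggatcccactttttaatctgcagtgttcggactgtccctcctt
Rdh12: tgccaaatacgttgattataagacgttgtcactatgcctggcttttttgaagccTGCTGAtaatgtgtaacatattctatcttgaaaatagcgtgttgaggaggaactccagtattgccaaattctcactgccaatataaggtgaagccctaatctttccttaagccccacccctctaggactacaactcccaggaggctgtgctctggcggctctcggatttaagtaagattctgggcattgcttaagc
Abca4: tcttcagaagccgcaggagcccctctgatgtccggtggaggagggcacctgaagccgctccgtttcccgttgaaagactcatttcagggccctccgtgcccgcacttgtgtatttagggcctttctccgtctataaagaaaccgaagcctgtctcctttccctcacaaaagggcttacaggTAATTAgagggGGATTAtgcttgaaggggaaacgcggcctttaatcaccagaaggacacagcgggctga
Aipl1: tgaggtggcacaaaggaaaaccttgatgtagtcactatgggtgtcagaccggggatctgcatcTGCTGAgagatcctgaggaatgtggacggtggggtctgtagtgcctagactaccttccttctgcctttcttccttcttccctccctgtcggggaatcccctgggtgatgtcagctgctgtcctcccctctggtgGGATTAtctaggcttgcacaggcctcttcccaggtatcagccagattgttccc
Rpgrip1: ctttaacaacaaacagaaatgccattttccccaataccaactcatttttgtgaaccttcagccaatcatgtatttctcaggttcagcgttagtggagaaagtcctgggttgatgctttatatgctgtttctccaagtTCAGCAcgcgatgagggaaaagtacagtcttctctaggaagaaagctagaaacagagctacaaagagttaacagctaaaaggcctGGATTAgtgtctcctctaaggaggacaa
Prpf31: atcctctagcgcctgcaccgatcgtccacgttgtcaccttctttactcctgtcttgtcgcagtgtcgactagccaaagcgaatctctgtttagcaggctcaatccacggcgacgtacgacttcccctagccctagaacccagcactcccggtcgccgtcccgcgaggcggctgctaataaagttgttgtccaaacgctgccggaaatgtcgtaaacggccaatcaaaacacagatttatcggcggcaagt

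The first base of the TAATCC match lay 58 bases before the RefSeq start in *Abca4*, 53 in *Aipl1* and 28 in *Rpgrip1*, in each case on the strand opposite to the gene. In the GENCODE annotation, however, *Rpgrip1* starts at chr14:52110704, inside its window. Most of that window, with its marked motifs, is downstream of the GENCODE start. The GENCODE starts of *Prph2* and *Abca4* also lie inside their windows, but near the end next to the RefSeq start. *Abca4* also held a TAATTA 69 bases before the start, and the windows of *Prph2* and *Prpf31* held none of the 3 motifs. Of the 37 genes, 33 were in the RefSeq table (*Rp1*, *Rp1l1*, *Kcnv2* and *Reep6* were not). Searched on both strands over all listed starts of a gene, TAATCC was found for 6 of the 33 (18.2%: *Abca4*, *Aipl1*, *Rpgrip1*, *Mak*, *Bbs1* and *Unc119*), against 7.21% of 27025 genes and 6.25% of 32851 windows. TAATTA, which reads the same on both strands, was found for 2 of the 33 (*Abca4* and *Impg2*; 6.06%, against 5.65% of genes), and TGCTGA for 6 (18.2%, against 18.0% of genes). The 3 motifs do not overlap in the printed windows. These matches describe the letters of the windows and were not tested as binding sites.

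The libraries held 5607, 5706 and 3298 cells (explants, P0 and P14), with 1281682 to 4237324 UMIs a sample in explants, 8822880 to 10793649 at P0 and 1266730 to 5886669 at P14. The summed photoreceptors or rods came from 106 to 403, 178 to 252 and 246 to 668 cells a sample, but P14 cones from 11 to 34 and amacrine cells from 4 to 23. Between any pair of libraries 4 to 9 cell barcodes were shared. The P14 cell types had most or all of their own markers highest: 7 of 7 rod markers in P14 rods, 7 of 7 cone markers in cones, 7 of 7 bipolar markers in bipolar cells, 5 of 5 glial markers in Muller glia and 4 of 5 amacrine markers in amacrine cells. The P14 amacrine class also had all 4 horizontal and all 4 ganglion cell markers highest, at a pooled sum of 2836 and 761 CPM (UMIs scaled to a common total for each sum of cells) against 2007 CPM for the amacrine list, and all 3 microglia markers were highest in bipolar cells (197 CPM). P0 and explant photoreceptors had 6 and 7 of 7 rod markers and all 6 measured cone markers highest, so these classes held both sets. Rod markers summed to 1438 to 1984 and cone markers to 1587 to 3502 CPM in P0 photoreceptors, against 28338 to 32923 and 85.8 to 118 CPM in P14 rods. Whether single cells held both sets was not tested. Explant cells were capped at 2499 genes a cell, P0 and P14 cells were not. *Sstr2* stood at 41.0 and 43.3 CPM over all cells of the P0 retinas labelled knockout, 22.3 and 33.5 in heterozygous retinas and 14.1 in the wild type. A 3′ count outside the deleted stretch checks nothing, and where the deletion lies relative to the counted tags is not given in the sources used here, so the genotypes below are those of the labels.

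In P14 retinas, 29 of the 37 genes were at least 2-fold higher in rods than in the mean of bipolar cells, Muller glia and amacrine cells in every retina, and none was 2-fold lower in every retina. Of all 11773 genes with at least 50 UMIs in this library, 6.23% were as much higher and 18.0% as much lower. Without amacrine cells among the other types, an alternative added after seeing the data, 30 genes were higher. The median ratio was 2.95 on the log2 scale over the 37 genes and -0.18 over all these genes. Since the deposited cell types come from clusters of the same counts, these ratios (with 1 CPM added) are a description and carry no test.

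**Figure D1:**
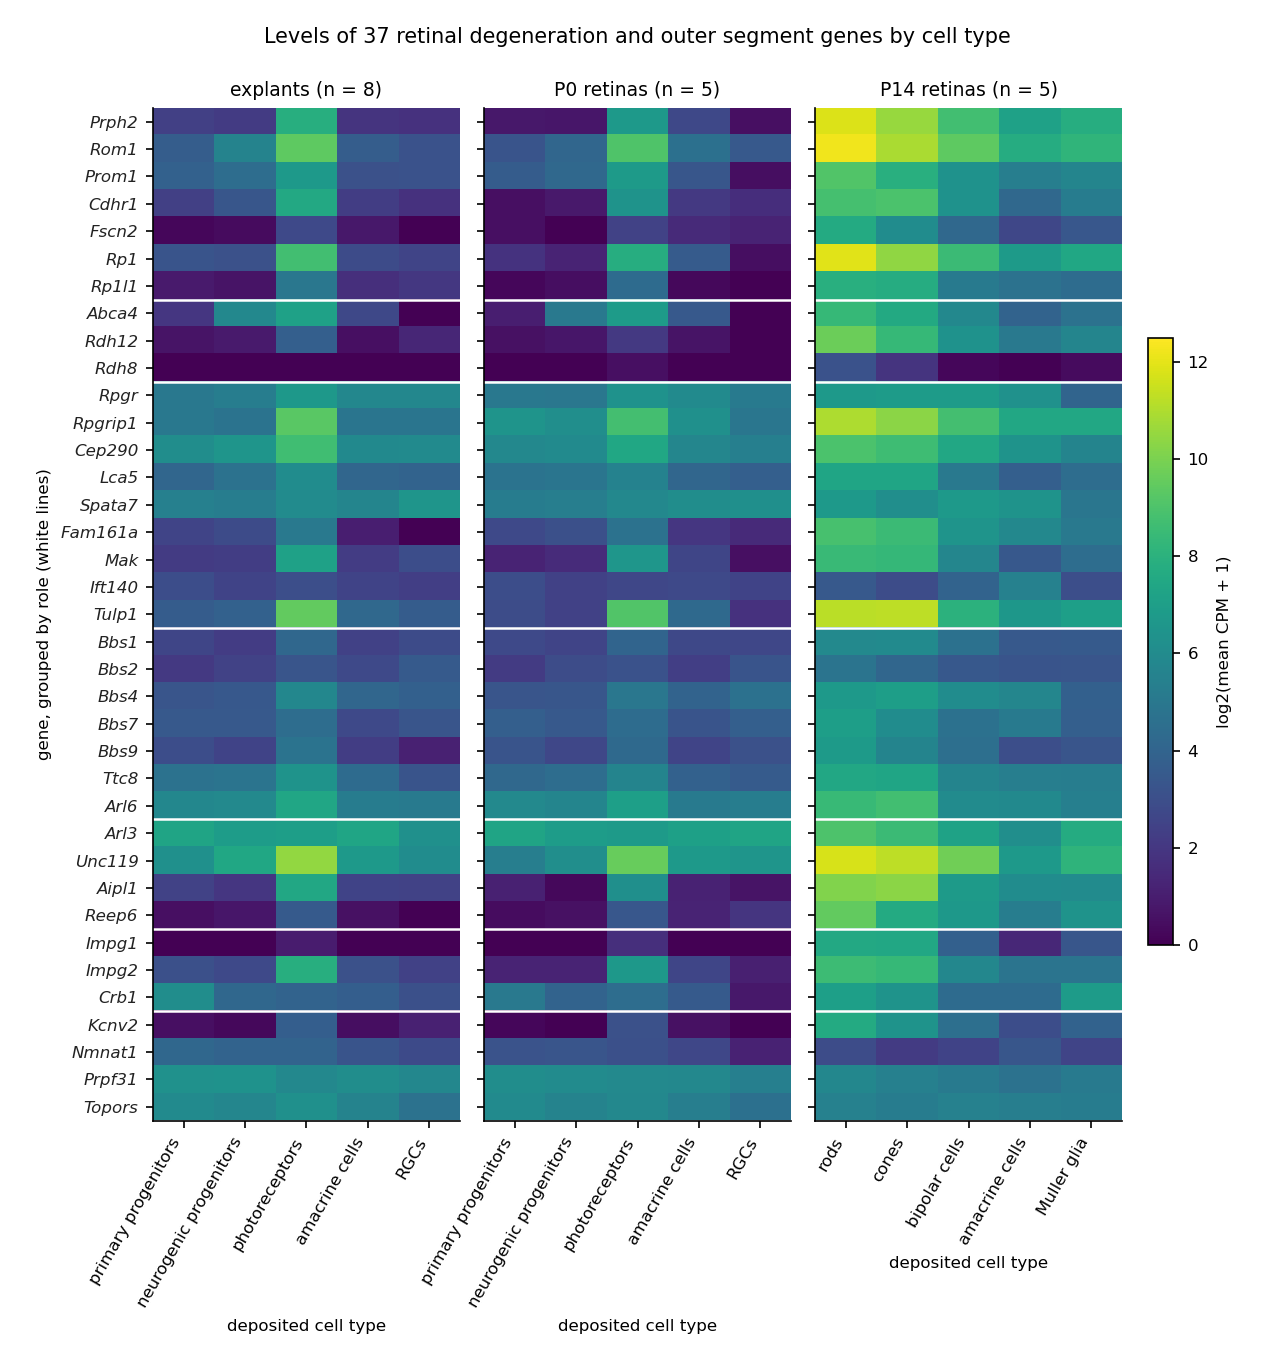
Levels of the 37 genes in the deposited cell types of explants (8 samples), P0 retinas (5) and P14 retinas (5). Colour gives log2 of the mean CPM over samples plus 1, rows are genes grouped by role (white lines), and columns are cell types. Photoreceptor columns are the brightest for most genes, while Prpf31 and Topors show little contrast between columns.

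All 7 disc and axoneme genes were at least 2-fold higher in rods. *Prph2* encodes peripherin-2, the tetraspanin that shapes the disc rim. In rods it stood at 3746 CPM (wild type), 3761 and 3551 (heterozygous) and 3797 and 3688 (labelled knockout), against 312 to 561 CPM in bipolar cells, 116 to 347 in Muller glia and 45.1 to 233 in amacrine cells. The 5 rod values lay far above every value of the 3 other types. *Rom1*, its partner at the rim, stood at 4606 to 5012 CPM in rods against 533 to 803 in bipolar cells. *Rp1*, a doublecortin-domain protein of the axoneme, stood at 3658 to 4232 CPM in rods with a median ratio of 15.9-fold over the other types. *Fscn2*, a retinal actin-bundling protein, had a median ratio of 16.9-fold, the highest of this group, with 165 to 219 CPM in rods and 8.40 to 27.5 in bipolar cells. *Prom1* and *Cdhr1*, which act where new discs form, had median ratios of 9.54-fold and 9.75-fold, and *Rp1l1* one of 10.1-fold.

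The 3 retinoid cycle genes differed widely in their UMI counts. *Abca4*, the transporter that clears retinal from the disc lumen, stood at 341 CPM in wild-type rods, 326 and 334 in heterozygous and 349 and 306 in knockout-labelled rods. *Rdh12*, an inner-segment retinol dehydrogenase, stood at 764 to 924 CPM in rods against 50.4 to 117 in bipolar cells, a median ratio of 13.8-fold. *Rdh8*, the outer-segment dehydrogenase, had 68 UMIs in rods of all 5 retinas together (4.81 to 11.3 CPM), 4 in cones, 2 in Muller glia, 1 in bipolar cells and 0 in amacrine cells, where a count of 0 allows up to 3.89 CPM. In 4 of the 5 retinas the 3 other types held no UMI of it, so its place among the 29 rests on the 1 CPM added, and no fold is given. The median over the 36 genes without it was 2.95 as well.

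Of the 9 cilium genes, 6 were at least 2-fold higher in rods and 3 were not. *Tulp1*, a tubby-like protein needed for protein transport to the outer segment, had the largest median ratio of this group, 12.0-fold, with 2294 to 2440 CPM in rods. *Mak*, a ciliary kinase, followed at 11.4-fold, *Fam161a* at 7.50-fold, *Lca5* (lebercilin) at 7.36-fold, *Rpgrip1* at 7.10-fold and *Cep290*, a gatekeeper of the transition zone, at 4.90-fold. *Rpgr*, the X-linked GTPase regulator that *Rpgrip1* anchors in the connecting cilium, behaved differently. It stood at 98.6 to 122 CPM in rods, 97.0 to 140 in bipolar cells and 94.5 to 143 in cones, so these 3 ranges overlapped, against 8.34 to 24.8 in Muller glia. *Spata7* likewise stood at 96.2 to 115 CPM in rods and 77.2 to 131 in bipolar cells, and *Ift140*, a core subunit of the retrograde transport complex, had 8.43 to 13.2 CPM in rods and 10.8 to 17.5 in bipolar cells. The annotated exons of *Rpgr* overlap those of *Srpx* on the same strand, so reads of the shared stretch cannot be assigned with certainty.

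The BBSome is an octameric coat that returns membrane proteins from cilia, and *Arl6* is the GTPase that recruits it. Of these 7 genes, 6 were at least 2-fold higher in rods in every retina, with median ratios from 2.20-fold for *Bbs4* to 7.97-fold for *Bbs9*. *Bbs2*, with a median of 3.0-fold, fell short in 1 or more retinas (lowest ratio 1.91-fold). *Arl6* stood at 305 to 383 CPM in rods, 368 to 461 in cones and 23.8 to 91.6 across bipolar cells and Muller glia. *Bbs4* stood at 98.1 to 118 CPM in rods and 52.1 to 80.8 in bipolar cells.

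All 4 genes of lipidated-protein traffic and chaperoning were higher in rods. *Unc119*, which carries acylated transducin, stood at 3417 CPM in wild-type rods, 3422 and 3391 in heterozygous and 3480 and 3488 in knockout-labelled rods, against 767 to 993 in bipolar cells. Its 5 rod values lay close together and above every value of the other types. *Aipl1*, the co-chaperone of phosphodiesterase 6, had a median ratio of 12.9-fold, *Reep6*, a membrane-shaping protein of the rod endoplasmic reticulum, one of 9.28-fold, and *Arl3*, the GTPase that releases lipidated cargo in the cilium, one of 4.16-fold.

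In the matrix and adhesion group, the interphotoreceptor matrix proteoglycans *Impg1* and *Impg2* were 21.8-fold and 10.4-fold higher in rods (medians). *Impg1* had the highest median ratio of all 37 genes, at 160 to 202 CPM in rods, 135 to 232 in cones and 1.67 to 18.6 in Muller glia. *Crb1*, the apical polarity protein of the outer limiting membrane, stood at 117, 137, 123, 125 and 153 CPM in rods (wild type, heterozygous, knockout-labelled) and at 64.2 to 141 CPM in Muller glia, and these ranges overlapped. It stood at 16.1 to 22.2 CPM in bipolar cells, below every rod and glial value. Of the last group, *Kcnv2*, a silent potassium channel subunit, was 13.0-fold higher in rods (median). *Prpf31*, a splicing factor of the tri-snRNP, *Topors*, a ubiquitin and SUMO ligase, and *Nmnat1*, a nuclear NAD synthase, were spread over the cell types. *Topors*, for example, stood at 34.9 to 53.9 CPM in rods, 31.9 to 53.9 in bipolar cells and 26.7 to 54.0 in Muller glia.

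Rod transcripts were also counted in the other P14 cell types, and the values for rod markers stand here beside those of the 37 genes. Pooled over retinas, the 7 rod markers *Nrl*, *Nr2e3*, *Gnat1*, *Sag*, *Pde6b*, *Pde6g* and *Cnga1* reached 6.93 to 11.2% of their rod level in bipolar cells, 4.69 to 7.93% in Muller glia and 1.6 to 4.91% in amacrine cells. *Prph2* reached 11.9, 6.55 and 3.55% in the same 3 types, *Rp1* 9.13, 4.70 and 2.30%, and *Impg1* 6.55, 5.87 and 1.35%. These shares lay in or near the range of the rod markers. Other disc genes reached more in bipolar cells: *Cdhr1* 17.2%, *Prom1* 15.5%, *Rp1l1* 14.7% and *Rom1* 14.0%. *Crb1* in Muller glia (79.9%), *Arl3* in Muller glia (43.5%), *Rpgr* in bipolar cells (109%) and *Unc119* in bipolar cells (26.0%) lay well above it.

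In Muller glia, 10 of the 37 genes exceeded the share of every rod marker in every retina (*Crb1*, *Arl3*, *Spata7*, *Reep6*, *Rpgr*, *Bbs2*, *Ttc8*, *Arl6*, *Prpf31* and *Topors*), against 76.5% of all genes. In bipolar cells, 23 of the 37 did so, against 83.2% of all genes. They were the same 10 and *Rom1*, *Prom1*, *Cdhr1*, *Rpgrip1*, *Cep290*, *Lca5*, *Fam161a*, *Ift140*, *Bbs1*, *Bbs4*, *Bbs7*, *Bbs9* and *Unc119*. A gene without a UMI in the rods of a retina was counted as exceeding there, which can only raise the share of all genes. The same holds for the share given below for cones. The part of carried-over rod RNA in the values of the other genes was not tested.

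**Figure D2:**
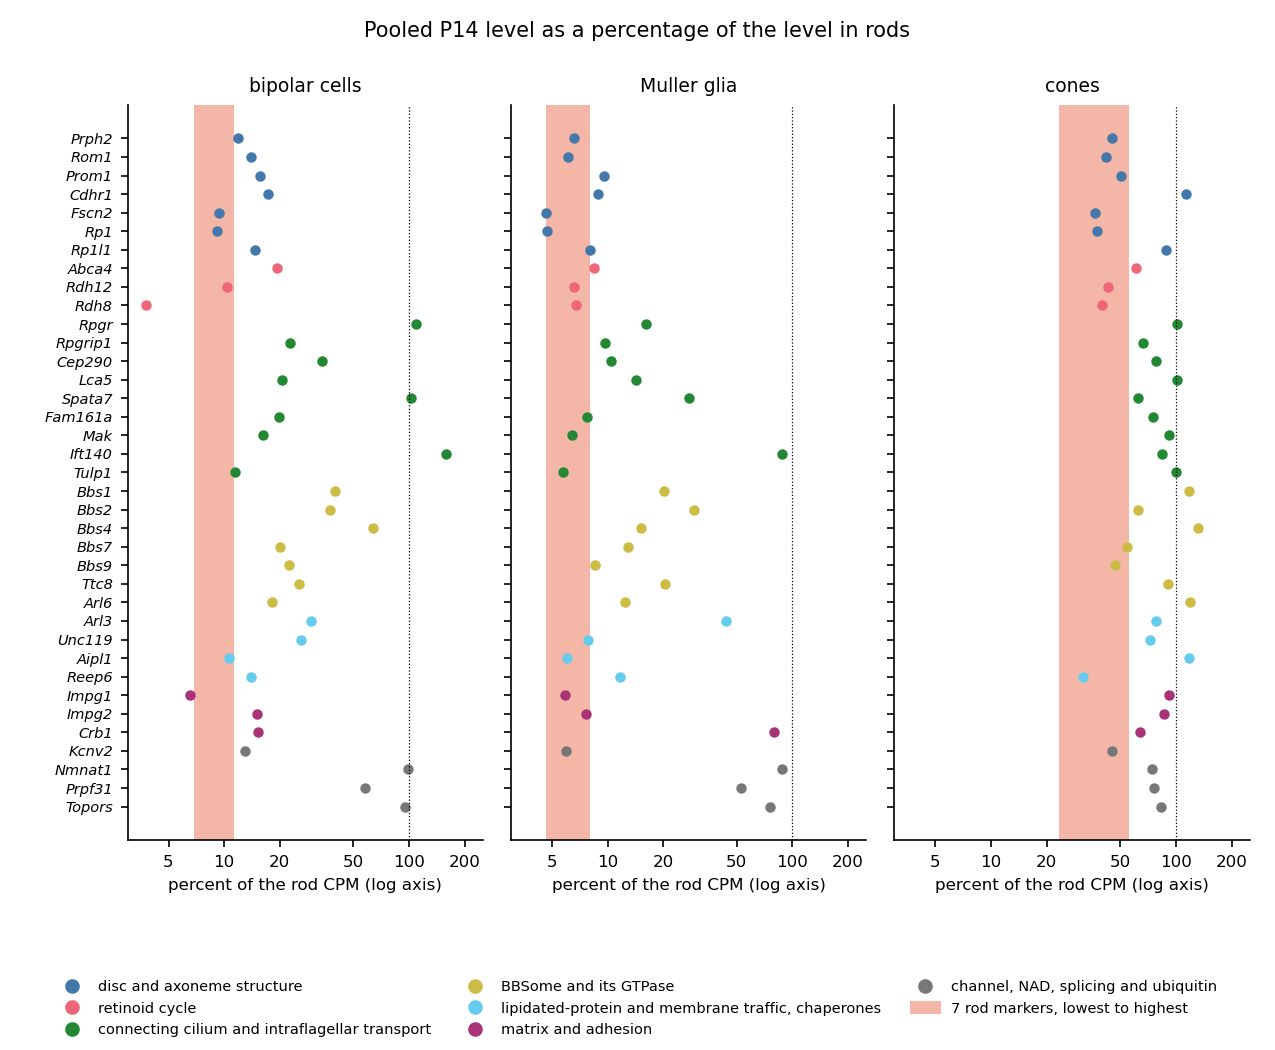
Pooled P14 CPM of each gene in bipolar cells, Muller glia and cones as a percentage of its CPM in rods (log axis, dotted line at 100%). Points are coloured by role, and the band spans the lowest to the highest of the 7 rod markers in that cell type: 6.93 to 11.2% in bipolar cells, 4.69 to 7.93% in Muller glia and 23.5 to 54.8% in cones. In bipolar cells Rp1 (9.13%) lies in the band and Cdhr1 (17.2%), Prom1 (15.5%), Rp1l1 (14.7%) and Rom1 (14.0%) lie above it, and Crb1 in Muller glia stands at 79.9%.

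The contrast between rods and cones was smaller. Of the 37 genes, 5 were at least 2-fold higher in rods than in cones in every retina (*Rom1*, *Rp1*, *Fscn2*, *Reep6* and *Kcnv2*), against 1.49% of all genes, and none was 2-fold lower in every retina, against 2.71%. The median ratio was 0.37 on the log2 scale over the 37 genes and 0.09 over all genes. *Reep6* had the largest median ratio of the 5, with 658 to 774 CPM in rods and 90.0 to 278 in cones (3.14-fold). *Fscn2* followed at 3.08-fold, *Rp1* at 3.02-fold, *Rom1* at 2.88-fold and *Kcnv2* at 2.07-fold. The count moved to 8 without the wild-type retina. *Prph2* had a median ratio of 2.50-fold and missed the count because of 1 or more retinas (lowest 1.78-fold).

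Other genes were near equal in the 2 photoreceptor types. *Tulp1* stood at 2307 to 2687 CPM in cones against 2294 to 2440 in rods, a median ratio of 1.00. *Aipl1* stood at 1259 to 1357 CPM in cones and 1072 to 1166 in rods, so the cone values lay above all rod values, by a median ratio of 0.86 for rods over cones. The ratio was also under 1 for *Arl6* (0.83) and *Cdhr1* (0.87), and *Mak* (1.13), *Impg1* (1.18) and *Lca5* (1.01) lay near 1. Rod markers reached 23.5 to 54.8% of their rod level in cells labelled cones. Whether RNA from rods also entered the cone values of the 37 genes was not tested. In cones, 19 of the 37 genes exceeded the share of every rod marker in every retina, against 39.5% of all genes, among them *Tulp1*, *Aipl1*, *Cdhr1*, *Mak*, *Impg1*, *Impg2* and *Rp1l1*. The other 18, with *Prph2* (45.1%), *Rp1* (37.3%) and *Prom1* (50.5%) among them, did not.

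At P0, 20 of the 37 genes were already at least 2-fold higher in photoreceptors than in the mean of progenitors, amacrine cells and ganglion cells in every retina, against 3.34% of 12969 genes, and none was 2-fold lower in every retina, against 6.58%. Of the 37 genes, 34 had the 50 UMIs required, and *Rdh12*, *Rdh8* and *Impg1* did not. The UMIs are counted over all cell types, and *Rp1l1*, *Aipl1*, *Cdhr1*, *Fscn2*, *Kcnv2* and *Reep6* reached 50 only through photoreceptors. Had these been low there, they would have been left out. *Tulp1* had the largest median ratio (66.2-fold), at 475 to 603 CPM in photoreceptors of the 5 retinas and 1.97 to 7.59 CPM in neurogenic progenitors. *Rp1* followed at 39.6-fold, *Aipl1* at 38.2-fold, *Cdhr1* at 36.6-fold, *Prph2* at 34.4-fold, *Mak* at 34.0-fold and *Impg2* at 31.4-fold. The genes not counted included the 3 with too few UMIs, *Rpgr*, *Crb1*, *Spata7*, *Arl3*, *Lca5*, *Fscn2*, *Bbs2*, *Bbs4*, *Bbs7* and *Bbs9*.

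Genes that were higher in rods at P14 were not all higher in photoreceptors at P0. The ratios have unlike references: progenitors, amacrine and ganglion cells at P0, and bipolar cells, Muller glia and amacrine cells at P14. *Arl3* stood at 85.6 to 127 CPM in P0 photoreceptors, 121 to 187 in primary progenitors and 115 to 154 in amacrine cells, a median ratio of 0.80, against 4.16 in P14 rods. *Bbs9*, *Bbs7* and *Bbs4* had medians of 2.85, 1.69 and 2.15 and fell under 2-fold in at least 1 retina. Over the 34 genes with enough UMIs at both ages, the P0 and P14 median ratios correlated across genes with a Spearman coefficient of 0.87. Genes are not independent replicates, and the reference types differ between the ages, so this is a description.

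*Abca4* differed from the disc genes at P0 in its place among the progenitors. The other retinoid genes had too few UMIs to compare. *Rdh12* had 4 in neurogenic progenitors and 27 in photoreceptors, and *Rdh8* had 0 and 4. *Abca4* was counted more often. *Abca4* stood at 81.1 to 129 CPM in photoreceptors, 24.4 to 43.8 in neurogenic progenitors, 6.77 to 13.3 in amacrine cells, 0.36 to 1.72 in primary progenitors and 0 in ganglion cells, where a count of 0 allows up to 1.31 CPM. The ranges of photoreceptors, neurogenic progenitors, amacrine cells and primary progenitors did not overlap. Pooled over retinas, its neurogenic level was 28.4% of the photoreceptor level (18.9 to 46.5% in single retinas). The same share was 0.71% for *Prph2*, 3.14% for *Rom1*, 0.68% for *Rp1*, 1.05% for *Cdhr1*, 1.47% for *Impg2* and 0.25% for *Aipl1*. *Crx*, a transcription factor of photoreceptor precursors, reached 14.9%, and *Otx2*, which acts upstream of it, 67.5%. *Prom1* was intermediate at 15.4%, with 14.9 to 20.3 CPM in neurogenic and 8.76 to 12.4 in primary progenitors. A high share was not particular to *Abca4*. *Cep290* had 344 of 5472375 UMIs in neurogenic progenitors and 1374 of 7804402 in photoreceptors, and *Ttc8* had 118 and 380. These 2 genes were also counted in primary progenitors (1488 and 474 of 26662821 UMIs), where *Abca4* had 29. Rod markers summed to 19.7 to 36.7 CPM in the same neurogenic cells, against 1438 to 1984 CPM in photoreceptors.

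Explant photoreceptors gave a like picture. The other types include cells labelled ganglion cells, only 5 to 61 cells an explant and 12 to 26 a retina at P0. In the mean they weigh as much as the larger types. In all 8 explants, 23 genes were at least 2-fold higher in photoreceptors than in the other types, against 4.01% of 11563 genes, out of 34 with 50 UMIs (*Impg1*, *Fscn2* and *Rdh8* had fewer), and none was 2-fold lower in all 8, against 5.38%. *Rp1l1*, *Rdh12*, *Kcnv2* and *Reep6* reached 50 UMIs only through photoreceptors (156, 60, 62 and 52 UMIs there). Had they been low there, they would have been left out. *Rdh8* had 0 UMIs in all cells of the explants, which allows up to 0.60 CPM in photoreceptors. *Abca4* in neurogenic progenitors had a lowest value of 28.9, a median of 58.9 and a highest of 86.3 CPM, and in photoreceptors 127, 134 and 163 CPM. Its pooled share was 41.0%, against 1.54% for *Prph2*, 1.83% for *Rp1* and 1.44% for *Aipl1*. *Prom1* was again intermediate at 19.3%, and *Rom1* reached 6.64% and *Cdhr1* 4.93%.

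*Crb1* was high in another cell type. In P0 retinas it stood at 24.7 to 39.3 CPM in primary progenitors, 12.3 to 28.2 in photoreceptors, 10.9 to 21.8 in neurogenic progenitors and 7.33 to 12.3 in amacrine cells, so the range in primary progenitors overlapped that in photoreceptors and lay above the other 2. In explants it stood at 57.7 to 80.8 CPM in primary progenitors (median 70.4) and at 7.92 to 23.9 in photoreceptors (median 13.3), with no overlap. *Prpf31*, *Topors* and *Spata7* were spread over all types in both libraries. *Nmnat1* was so except in cells labelled ganglion cells, with 3 of 2290290 UMIs at P0 and 3 of 671423 in explants. Primary progenitors held 224 of 26662821 and 127 of 7518613. In P14 retinas *Prpf31*, *Topors* and *Nmnat1* were spread over the types as well. *Spata7* was lower in P14 Muller glia (105 of 3540624 UMIs) than in rods (879 of 8164830 UMIs). *Prpf31*, for example, stood at 51.4 to 72.8 CPM in P0 photoreceptors and 61.7 to 77.3 in primary progenitors.

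**Figure D3:**
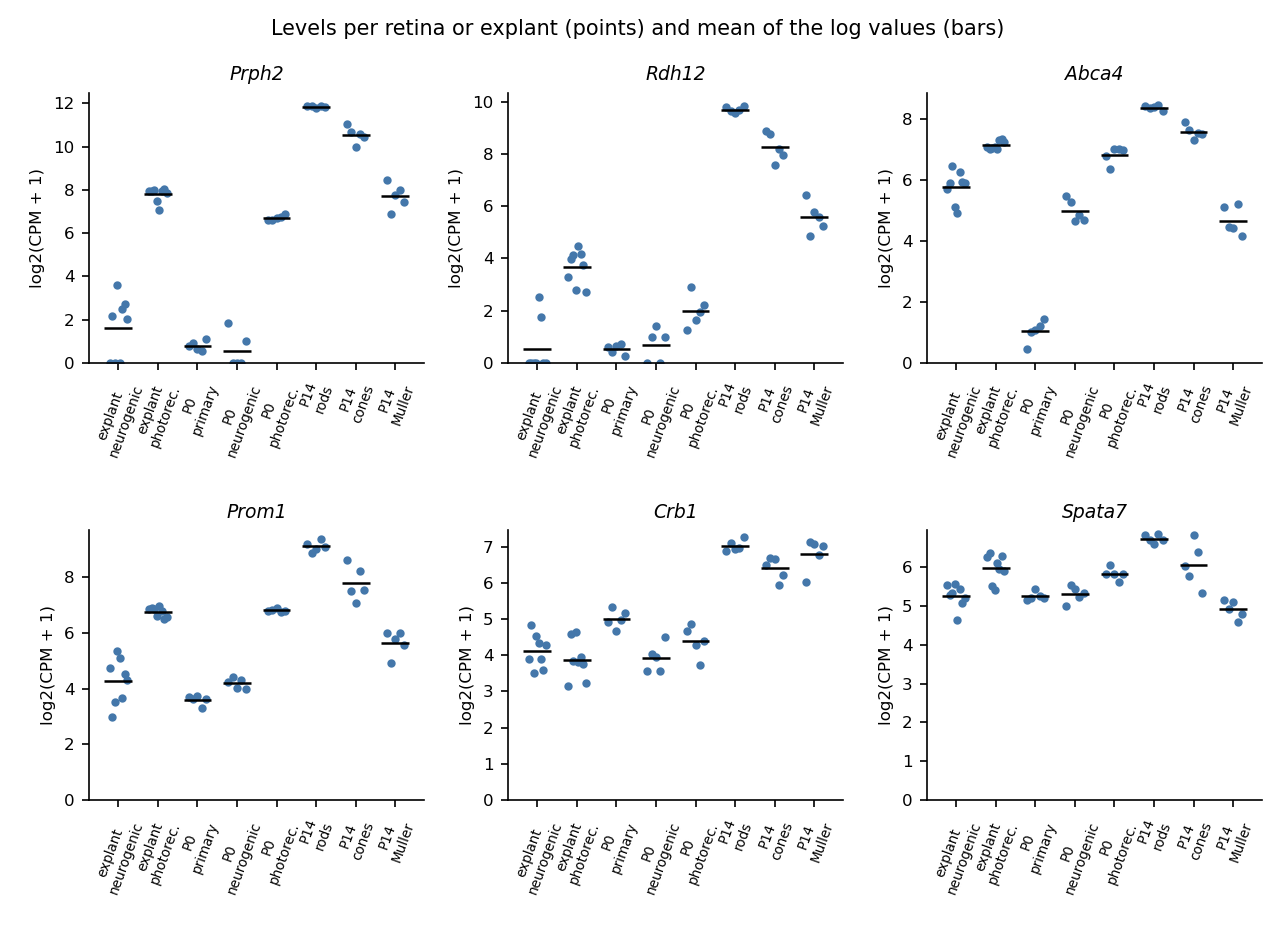
Levels of 6 genes in single explants or retinas (points, log2 of CPM plus 1) with the mean of the log values (bars), for 8 combinations of library and cell type. Abca4 stands between 24.4 and 43.8 CPM in P0 neurogenic progenitors and Prph2 near 0, while Prph2 and Rdh12 show the largest steps from P0 photoreceptors to P14 rods, and the Crb1 values of P14 Muller glia (64.2 to 141 CPM) overlap those of rods (117 to 153).

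The main comparison set P14 rods against P0 photoreceptors, 5 retinas each, on UMI counts summed per retina with edgeR's quasi-likelihood test. Of the 37 genes, 36 passed the filter on low counts. The filter can pass a gene on the counts of 1 group. It passed at least *Rdh12*, *Impg1*, *Fscn2*, *Reep6* and *Ift140* only through those of P14 rods. Had these been low there, they would have been left out. At an adjusted p under 0.05, 33 rose and none fell, against 36.8% of 9409 genes that rose and 36.0% that fell. The median log2 fold change was 2.35 over the 36 genes and 0.02 over all genes. *Rdh8* was filtered out, at 4 UMIs in P0 photoreceptors and 68 in P14 rods. Each age is 1 library, so age and library cannot be told apart, and the P0 class also held cone markers. Markers of primary progenitors summed to 1018 to 1753 CPM in P0 photoreceptors, close to the 1055 to 1495 CPM of P0 neurogenic progenitors, with none of the 5 at 0. In P14 rods they summed to 36.7 to 64.9 CPM, with 1 of the 4 measured at 0. Their part in the rises was not tested. With P14 rods and cones summed, an alternative added after seeing the data, 33 genes rose as well. In summed counts, fewer expressing cells and less RNA per cell cannot be told apart.

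*Rdh12* rose most. It stood at 1.37, 6.43, 2.12, 2.84 and 3.61 CPM in P0 photoreceptors (wild type, heterozygous, knockout-labelled) and at 891, 801, 764, 820 and 924 CPM in P14 rods, a log2 fold change of 8.06 ± 0.16 (SE; edgeR adjusted p = 5.2e-20). Every P14 retina lay far above every P0 retina. The P0 level rests on 27 UMIs, so the error given is too small. *Abca4*, of the same retinoid cycle, stood at 108, 81.1, 129, 128 and 125 CPM at P0 and 341, 326, 334, 349 and 306 at P14, a log2 fold change of 1.71 ± 0.10 (edgeR adjusted p = 2.4e-12). The 2 retinoid genes tested thus rose by 267-fold and 3.28-fold.

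All 7 disc and axoneme genes rose, with log2 fold changes from 2.48 for *Prom1* to 5.46 for *Fscn2*. *Prph2* stood at 96.0, 98.0, 104, 106 and 116 CPM at P0 and 3746, 3761, 3551, 3797 and 3688 at P14 (5.32 ± 0.07, edgeR adjusted p = 1.3e-22). *Rom1* stood at 461 to 613 CPM at P0 and 4606 to 5012 at P14 (3.31 ± 0.07). The 2 rim proteins act as partners, and their messages rose by 40.0-fold and 9.89-fold. On the log2 scale, *Rp1* rose by 4.34 ± 0.08 and its relative *Rp1l1* by 3.81 ± 0.11.

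Among the cilium genes, all 9 rose, by log2 fold changes from 0.55 ± 0.09 for *Rpgr* to 4.37 ± 0.11 for *Fam161a*. *Fam161a*, a microtubule-binding protein of the connecting cilium, stood at 17.1 to 30.3 CPM at P0 and 404 to 497 at P14. *Rpgr* stood at 70.2 to 92.5 CPM at P0 and 98.6 to 122 at P14, a narrow gap. *Cep290*, *Lca5*, *Mak*, *Tulp1* and *Rpgrip1* lay between, at 1.69, 2.00, 2.04, 2.29 and 2.36. The 7 BBSome genes rose together within a narrow band, from 1.54 for *Arl6* to 2.77 for *Bbs9*, with a median of 2.07.

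The chaperone and traffic genes split into moderate and steep rises (log2 scale). *Unc119* and *Arl3* rose by 2.34 ± 0.06 and 2.36 ± 0.09. *Aipl1* rose by 4.10 ± 0.08 and *Reep6* by 6.38 ± 0.12, from 5.77 to 12.9 CPM at P0 to 658 to 774 at P14. In the matrix group *Impg1* rose by 6.34 ± 0.19 and *Impg2* by 2.11 ± 0.10. *Impg1* stood at 3.43, 3.46, 3.72, 0 and 0.72 CPM at P0 and 198, 202, 160, 196 and 185 at P14. Its P0 level rests on 20 UMIs, so the error given for it is too small. *Kcnv2* rose by 4.90 ± 0.14. The 3 genes that did not pass the test were *Prpf31* (0.08 ± 0.11, adjusted p = 0.51), *Nmnat1* (0.10 ± 0.26, 0.74) and *Topors* (-0.15 ± 0.12, 0.27), by edgeR over all genes. These are the splicing, NAD and ubiquitin genes of the set.

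**Figure D4:**
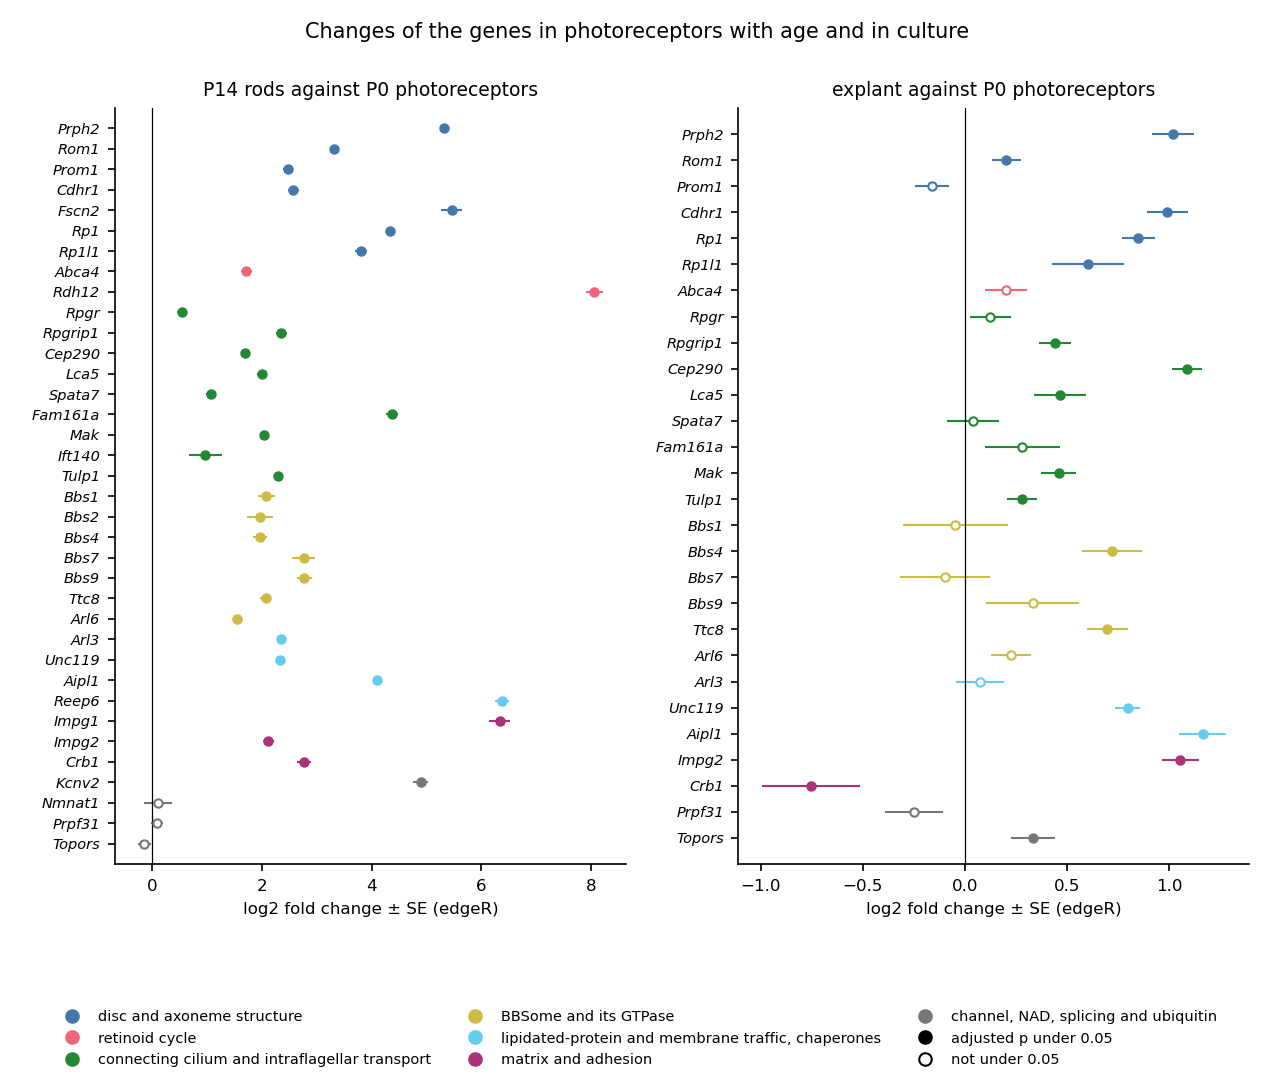
Log2 fold changes with standard errors (edgeR) of the genes in P14 rods against P0 photoreceptors (left, 5 against 5 retinas) and in explant against P0 photoreceptors (right, 8 explants against 5 retinas). Colours give the role and filled points an adjusted p under 0.05. On the left, 33 of 36 points are filled and lie right of 0, up to 8.06 for Rdh12. On the right, 17 of 28 are filled and Crb1 (-0.76) lies left of 0.

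Other genes of the same pathways, 53 in all, gave a less even picture in this comparison. Of the 44 tested, 32 rose and 4 fell, against 36.8% and 36.0% of all 9409 genes, with a median log2 fold change of 1.24. All 8 tested photoreceptor genes rose. Of these, *Guca1b*, *Slc24a1* and *Cabp4* had 0, 7 and 11 UMIs in P0 photoreceptors. They passed the filter only through P14 rods, so a fall could not have been called for them. The guanylate cyclase activator *Guca1b* had 0 UMIs in P0 photoreceptors, which allows up to 0.38 CPM, and 1267 to 1441 CPM in P14 rods. The cation exchanger *Slc24a1* had 7 UMIs in P0 photoreceptors (0.49 to 1.44 CPM) and stood at 1460 to 1634 CPM in P14 rods (log2 fold change 10.76). Of the 18 tested further cilium genes, 14 rose and 1 fell, and of 7 further Bardet-Biedl genes, 5 rose. Of the 6 splicing factors linked to retinitis pigmentosa, 1 rose and 2 fell, including *Rp9* (-1.42 ± 0.09). Of the 5 tested Usher genes, 4 rose, and *Cib2*, from 20.9 to 37.9 CPM at P0 to 0 to 3.45 at P14, fell by 3.78 ± 0.34 on the log2 scale. *Cib2* in turn passed the filter only through P0 photoreceptors.

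The explants reached the age of P0 in culture, and their photoreceptors were set against those of the P0 retinas (8 explants against 5 retinas, edgeR). Strain, culture and library cannot be told apart here, and the P0 retinas are the same as in the age comparison. The explant group holds all agonist doses and the P0 group all *Sstr2* genotypes, so agonist and genotype differ between the groups too. Of the 37 genes, 28 passed the filter. Of these, 16 were higher in explants, against 23.4% of 7879 genes, and 1 was lower, against 24.6%. The median log2 difference was 0.33 over the 28 genes and 0.01 over all genes. The progenitor markers that summed to 1018 to 1753 CPM in P0 photoreceptors summed to 103 to 340 CPM in explant photoreceptors, with none of the 5 at 0, and their part in these differences was not tested.

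*Aipl1* was highest relative to P0, with a lowest value of 125, a median of 173 and a highest of 234 CPM in explants against 60.3 to 79.7 at P0 (1.17 ± 0.11, edgeR adjusted p = 1.2e-09). *Cep290* stood at 339 to 467 CPM in explants and 160 to 188 at P0 (1.09 ± 0.07). *Impg2* (1.06 ± 0.09), *Prph2* (1.02 ± 0.10) and *Cdhr1* (0.99 ± 0.10) differed about as much, and for these 5 genes every explant lay above every P0 retina. *Rp1* (0.85), *Unc119* (0.80), *Bbs4* (0.72), *Ttc8* (0.70) and *Rp1l1* (0.60) followed. *Abca4* (0.20 ± 0.10, adjusted p = 0.11), *Prom1* (-0.16 ± 0.08, 0.11), *Spata7* (0.04 ± 0.13, 0.82) and *Rpgr* (0.12 ± 0.10, 0.31) did not pass the test.

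*Crb1* was the 1 gene that was lower, with 7.92 to 23.9 CPM (median 13.3) in explant photoreceptors against 12.3 to 28.2 at P0 (-0.76 ± 0.24, adjusted p = 0.011). The ranges overlapped, and with the 2 explants at 0 nM as the explant group it no longer passed (-0.82). Its mean level was highest in primary progenitors in both libraries. Photoreceptors had a median of 4035 to 5199 UMIs a cell at P0 and 2478 to 2807 in explants, where the cap on genes applied. Of 34 further pathway genes tested, 8 were higher and 9 lower in explants, close to the 23.4% and 24.6% of all 7879 genes. *Guca1a* was highest (1.78 ± 0.27) and *Cngb1* lowest (-1.17 ± 0.19).

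The agonist comparison asked whether *Sstr2* activation changes photoreceptor messages. *Sstr2* itself had only 2 to 9 UMIs an explant in photoreceptors, and the paper places it in neurogenic progenitors. The comparison is thus in cells with little of its message. With 500 nM against 0 nM (2 explants each, with all 8 in the fit), none of the 29 genes tested passed an adjusted p of 0.05 in edgeR, against 0.0941% of 7440 genes. At an unadjusted p under 0.05 there were 5, against 5.66% of all genes, and 1 with DESeq2, against 0.457%, which called none of the 7440 genes after adjustment. *Spata7* differed most. It stood at 76.6 and 81.5 CPM at 0 nM, 78.2 and 58.8 at 5 nM, 68.4 and 61.8 at 50 nM, and 44.9 and 41.7 at 500 nM (-0.83 ± 0.23, adjusted p = 0.32 by edgeR). Both explants at 500 nM lay below the other 6. *Arl3* stood at 163 and 129, 163 and 125, 94.6 and 134, and 111 and 85.5 CPM in the same order (-0.59 ± 0.18, adjusted p = 0.55). *Aipl1* (-0.38), *Rom1* (-0.25) and *Unc119* (-0.19) were the others under 0.05 before adjustment. *Prph2* differed by -0.12 ± 0.15 and *Rpgrip1* by 0.02 ± 0.10. The standard errors had a median of 0.18 over the 29 genes, so a difference of that order would not have been detectable. The sexes of the explants also differed: *Xist*, which is transcribed from the inactive X chromosome, stood at 3363 and 3218 CPM in photoreceptors at 500 nM, 2976 and 1622 at 5 nM, and 1571 to 1687 in the other 4, and its part was not tested.

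The genotype comparisons asked whether loss of *Sstr2* changes the same messages in vivo. *Sstr2* itself had 3 to 8 UMIs a retina in P0 photoreceptors and 0 in P14 rods of every retina. These comparisons are thus in cells with little or none of its message. The sexes of the retinas may differ too: the sex markers *Xist*, *Ddx3y*, *Eif2s3y* and *Uty* summed to 164 to 2092 CPM in P0 photoreceptors. In P14 rods these markers summed to 143 to 1116 CPM, and the part of sex was not tested. In P0 photoreceptors, with retinas labelled knockout against heterozygous (2 each, the wild type kept as its own group), none of 34 genes passed in edgeR, against 0.0592% of 10129 genes. *Rp1* was the 1 gene under 0.05 before adjustment (0.25 ± 0.10, adjusted p = 0.68), against 6.87% of all genes. DESeq2 gave none, against 1.01%. It stood at 213 and 203 CPM in the heterozygous, 244 and 247 in the knockout-labelled and 186 in the wild-type retina. *Fscn2* had the largest difference, -1.56 ± 0.85, on 0 to 7.44 CPM a retina.

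In P14 rods none of the 37 genes passed, against 0.0106% of 9474 genes. *Bbs2* (-0.64 ± 0.25), *Bbs1* (0.39 ± 0.18) and *Prom1* (0.26 ± 0.12) were under 0.05 before adjustment in edgeR, each with an adjusted p of 0.9998, and 2.89% of all genes were so. In DESeq2 none of the 37 was, against 0.253%. *Bbs2* stood at 39.4 and 27.7 CPM in the heterozygous, 22.8 in both knockout-labelled and 24.0 in the wild-type retina, so the wild type sat with the knockout-labelled pair. *Prom1* stood at 474 and 522, 667 and 542, and 581 CPM, so the wild type lay between the 2 knockout-labelled retinas. The abundant genes had small errors: *Prph2* differed by 0.01 ± 0.08, *Unc119* by 0.01 ± 0.08 and *Rp1* by -0.03 ± 0.09. A test of whether the genotype difference itself changed from P0 to P14 passed for none of the 37 genes and none of 10926 genes in edgeR. At an unadjusted p under 0.05 there were 3 of the 37 (*Impg1*, *Fscn2* and *Bbs2*), each with an adjusted p of 0.99, against 4.26% of all genes. Their P0 side rests on only 20, 39 and 61 UMIs in photoreceptors of all retinas together.

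**Figure D5:**
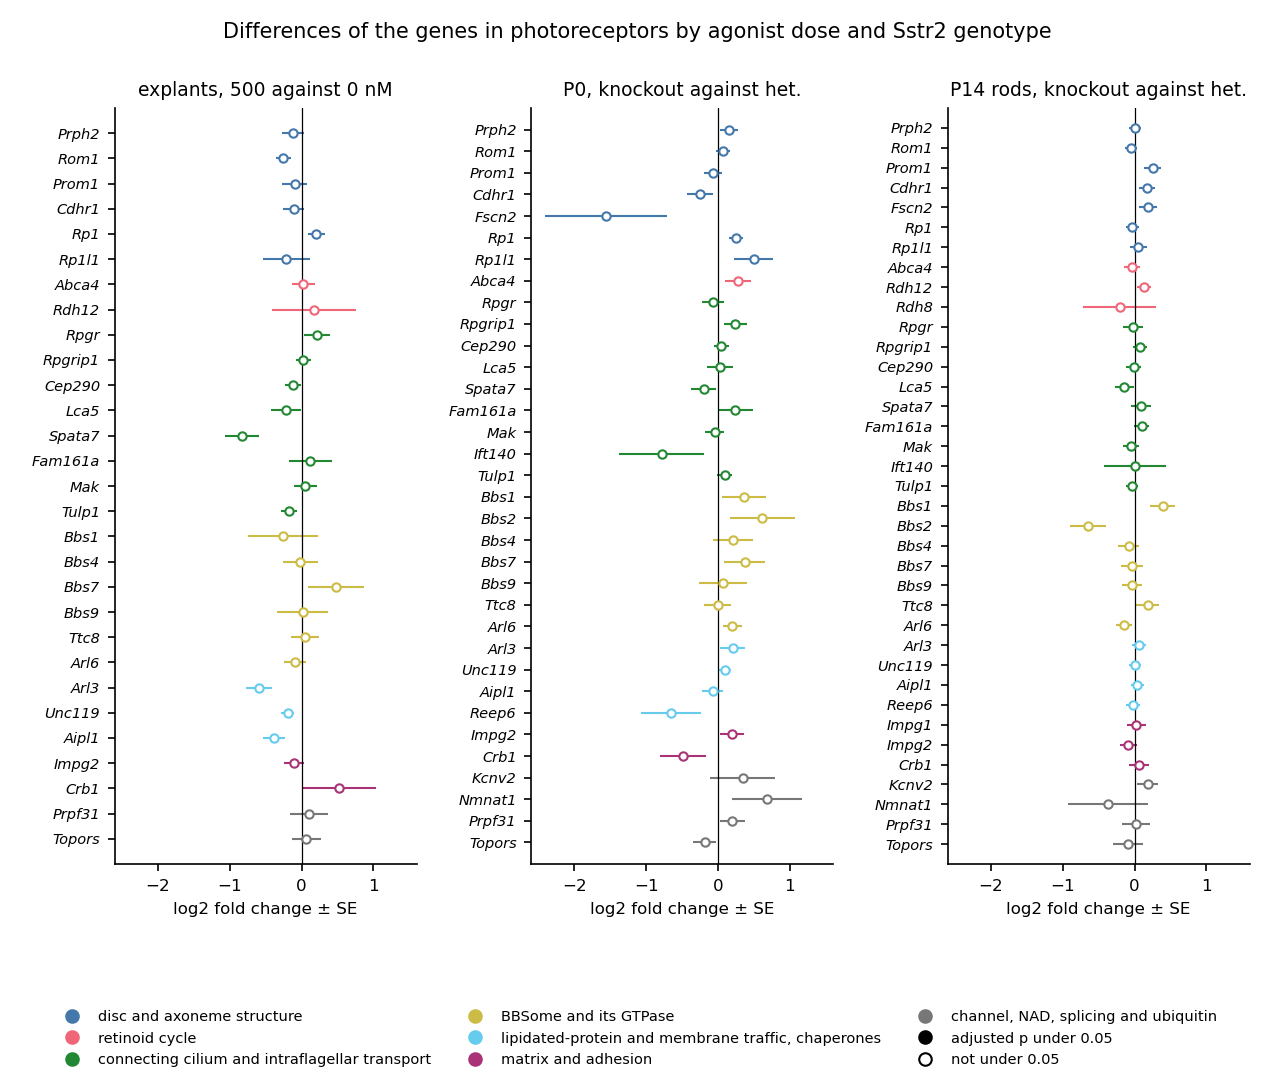
Log2 fold changes with standard errors (edgeR) for 500 against 0 nM agonist in explant photoreceptors (left, 29 genes), knockout-labelled against heterozygous P0 photoreceptors (middle, 34 genes) and the same in P14 rods (right, 37 genes), 2 samples a group. All points are open, since none had an adjusted p under 0.05. Spata7 (-0.83) lies farthest from 0 relative to its error on the left, and the standard errors are smallest on the right (median 0.12, against 0.17 and 0.18).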

How the data were processed

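Cells of 8 explants, 5 P0 retinas and 5 P14 retinas were profiled by MULTI-seq on 10x Chromium 3′ chemistry. The submitters' processing notes name Cell Ranger 3.1.0, Seurat 3 and mm10. The authors assigned cells to samples with deMULTIplex, followed the Seurat SCT workflow and named cell types from cluster markers. The deposited raw counts are whole UMI counts per gene and cell, without normalization by the authors. The corrected values were not used here. Samples and cell types were taken from the deposited cell annotation.

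From these counts, each cell type's UMIs were added up within a sample and expressed as counts per 1e6 UMIs (CPM) of that sum. Cell types were compared by ratios within each sample, with 1 CPM added, among genes with at least 50 UMIs in a library, and a gene was counted where the ratio was at least 2 in every sample. The quasi-likelihood test of edgeR 4.0.16 (R 4.3.3) was run on the sums after filterByExpr and TMM scaling, with Benjamini-Hochberg adjustment over all genes tested and a threshold of 0.05, after a check on simulated data. DESeq2 1.42.0, DESeq2 size factors, no filter, leaving out the 5% of cells with the most UMIs in each type (possible doublets, for which no caller was run), leaving out each sample and other control groups served as alternatives. The standard errors given with edgeR are approximate. Each is the absolute log2 fold change divided by the square root of the F statistic of the quasi-likelihood test. This understates the error of genes that rose steeply from few UMIs at P0, such as *Slc24a1*, *Impg1*, *Rdh12*, *Fscn2*, *Kcnv2* and *Reep6*. Named genes were those past a threshold and those at the ends of each role group. The genes, lists and tests were chosen with earlier results of these data known. P-values measure the spread between barcoded samples, which may share animals. Limits given for a count of 0 are 3 counts over the summed UMIs of that cell type in the library and cover counting error only. Upstream sequences came from RefSeq on GRCm38.p6 and overlaps of exons from GENCODE M21. A rod marker and a pathway gene of the lists are not reported here and entered none of the marker or pathway summaries.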

Additional observations from a re-analysis of the deposited data

Results flagged for a closer look

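Each of 110 sets of levels (1 gene over the 5 or 8 samples of a library, in rods or photoreceptors) was searched for a sample standing apart by Dixon's test, and 5 did, about what 1 in 20 by chance gives. In P14 rods, *Fam161a* stood at 404.2 CPM in the heterozygous retina 2 (336 UMIs) and at 470.0 to 496.8 in the other 4. In P0 photoreceptors, *Lca5* stood at 56.2 CPM in the wild-type retina (82 UMIs; others 41.1 to 42.7), and *Prpf31* at 72.8 CPM in the retina labelled knockout 2 (101 UMIs; others 51.4 to 57.4). In explant photoreceptors, *Nmnat1* stood at 25.8 CPM in the 500 nM explant 2 (13 UMIs; others 10.5 to 16.7), and *Prpf31* at 106.4 CPM in the 5 nM explant 1 (34 UMIs; others 42.1 to 60.2). No library or group held more than 2 of these 5 samples, and the causes were not tested.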

How the results depend on the processing

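Across the alternatives run, the age comparison called 33 or 34 of the genes and the culture comparison 17 to 20, and none of the 37 was called for dose or genotype. Among the single-gene values under these alternatives, 1160 kept their direction and side of the threshold and 17 reversed, the latter in genes that did not pass the test. The number 2-fold higher in rods than cones was 3 with 10 CPM added and 5 to 8 when single retinas were left out (8 without the wild type). Over all genes, the 7 dose calls became 0 with DESeq2, 12 without a filter on low counts and 4 to 22 without single explants (4 without 0 nM 1, 22 without 500 nM 1). The 6 genotype calls at P0 became 120 without a filter, 11 without the 5% of cells with the most UMIs, 2 against heterozygous and wild type together, and 5 to 88 without single retinas (25 without heterozygous 1, 88 without knockout 1, 16 without knockout 2). The 1 call at P14 became 18 without a filter and 0 to 26 without single retinas (8 without heterozygous 1, 26 without heterozygous 2, 0 without knockout 2). *Nmnat1* changed sign with age (-0.043 without P0 heterozygous 2, the range without single samples being -0.04 to 0.18). In culture, without the 5% of cells with the most UMIs, values reversed for *Abca4* (-0.0083) and *Spata7* (-0.026), and with the 0 nM explants alone for *Bbs1* (0.29). Without single samples, *Arl3* reversed at -0.011 and -0.019 (0 nM 1, P0 heterozygous 1), *Bbs7* at 0.030 and 0.074 (50 nM 2, P0 knockout 2), *Spata7* at -0.025, -0.0028 and -0.00075 (0 nM 1, 0 nM 2, P0 knockout 1) and *Bbs1* at 0.0079, 0.019, 0.048, 0.00026, 0.066 and 0.041 (0 nM 1, 500 nM 2, 50 nM 2, 5 nM 1, 5 nM 2, P0 knockout 2). *Prom1* passed in culture without the 5% of cells with the most UMIs (-0.23), and *Prpf31* without the 5 nM explant 1 (-0.37). *Arl6* passed with the 0 nM explants alone (0.45), without a filter on low counts (0.22) and without the 50 nM explant 2 (0.28), the 5 nM explant 2 (0.27) or the P0 knockout 2 (0.29). *Rom1* no longer passed without the 5% of cells with the most UMIs (0.11) or without the P0 wild type (0.15). The causes were not tested. No paired analysis was possible because the sample barcodes carry no replicate number shared between groups, so the replicate block alternatives were not run. P14 cones came from 11 to 34 and amacrine cells from 4 to 23 cells a retina, which limits their values.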
